A study of Mus musculus with 6 samples.

Results

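The antioxidant defence genes described here were *Sod1*, *Sod2*, *Sod3*, *Cat*, *Gpx1*, *Gpx4*, *Prdx1*, *Txnrd1*, *Nfe2l2*, and *Keap1*, which are 10 of the 31751 genes in the deposited DNA methylation table. They were chosen by name, and every CpG site whose closest transcription start site (TSS) belonged to 1 of them was taken, at any distance. This gave 879 of 2268080 deposited sites. Of these, 322 had at least 10 reads in all 6 samples and were used, out of 681804 such sites in the table. A site within 1 kb of the TSS was a promoter site (168 sites), and a site farther away was a distal site (154 sites).

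Reduced representation bisulfite sequencing (RRBS) was carried out on germline stem (GS) cells, which are cultured mouse spermatogonia. Bisulfite converts unmethylated cytosines and spares methylated ones, so the DNA methylation level of a site is the percent of its reads that stayed methylated. The 3 Space replicates were cryopreserved for 6 months on the International Space Station, and the 3 Ground replicates for 6 months on Earth. Both groups came from C57BL6/Tg14(act-EGFP-OsbY01) mice, in which an actin promoter drives EGFP, after breeding into a DBA/2 background (genotype DBA/Tg14(act-EGFP-OsbY01)). Both were grown on mouse embryonic fibroblasts as feeder cells, and both were analyzed 14 days after thawing with 2 passages. No sample that was never frozen was analysed here. The labels call the replicates biological but do not say whether they were separate cultures or vials, so p-values measure the spread between these samples only. Reads summed over the common sites ranged from 28535973 to 33743845 per sample, and the median coverage from 27 to 32 reads per site. The mean level of promoter sites was highest in Ground 1 (2.74%) and Space 1 (2.71%) and was 2.18% to 2.43% in the other samples.

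Antioxidant enzymes remove the reactive oxygen species that respiration and radiation produce. Superoxide dismutases turn superoxide into hydrogen peroxide, and catalase, glutathione peroxidases, and peroxiredoxins reduce the peroxide. NRF2, the product of *Nfe2l2*, binds antioxidant response elements near the genes of many such enzymes, while KEAP1 holds NRF2 for degradation until oxidants release it. CpG-rich promoters of genes in general use are usually free of DNA methylation, whereas CpG-poor sequence is usually methylated.

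Promoter sites of the antioxidant genes had almost no DNA methylation in Space and Ground GS cells. The mean level over the 6 samples was under 10% at 167 of the 168 promoter sites, beside 98.7% of all promoter sites in the table. The exception was 1 of the 2 promoter sites of *Sod3*. Distal sites fell into separate kinds. *Sod1*, *Cat*, and *Txnrd1* were nearly fully methylated away from the TSS, while most distal sites of *Sod2*, *Sod3*, *Gpx4*, and *Keap1* had levels as low as promoter sites. Of the 154 distal sites, 120 (77.9%) were under 10% and 26 (16.9%) were over 90%, beside 48.8% and 34.7% of all distal sites in the table. The 120 include a run of 40 sites in *Gpx4* and runs of 34 and 3 sites in *Sod2* that lay near another annotated start of the gene. The share of 77.9% is thus not that of sites away from every start. None of the promoter and distal levels differed between Space and Ground GS cells beyond the spread between replicates after adjustment.

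**Figure D1:**
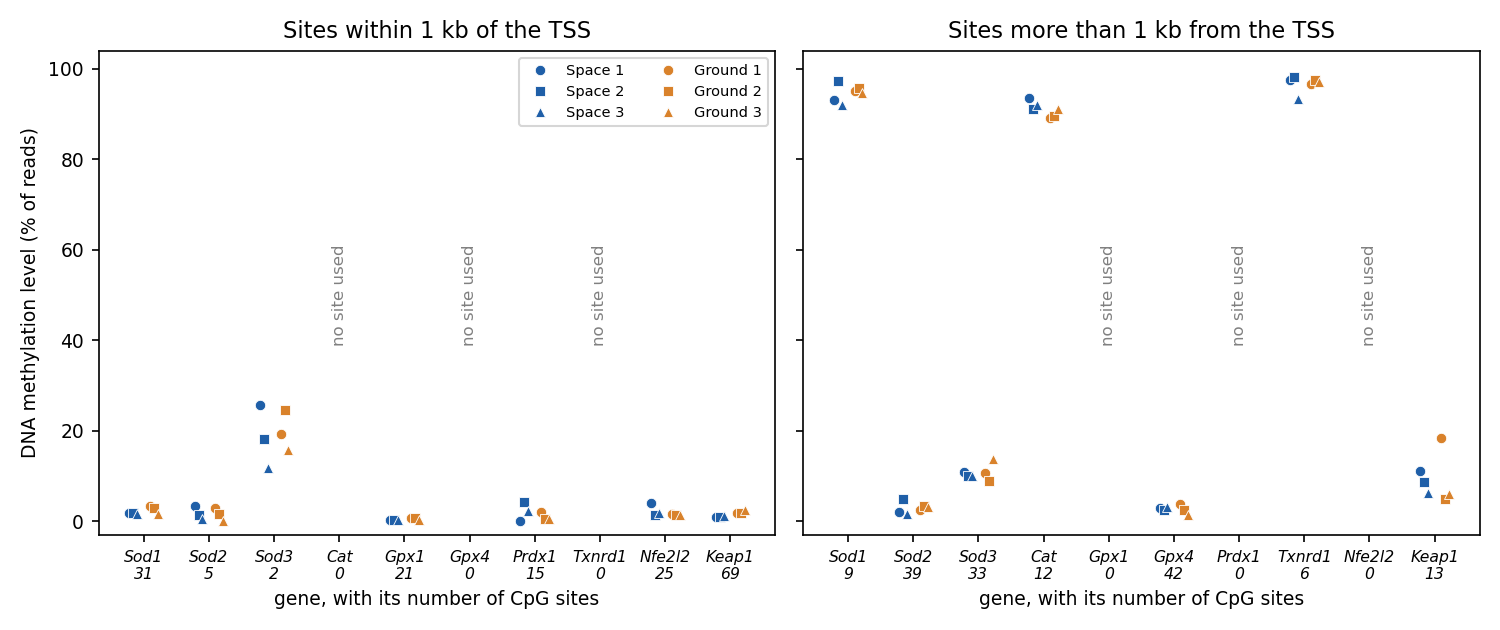
DNA methylation level (percent of reads, summed over sites) of each gene in 3 Space and 3 Ground samples, for sites within 1 kb of the TSS (left) and farther away (right), with the number of sites under each name. Promoter levels lay under 5% except for *Sod3*, which had 2 promoter sites, and distal levels lay over 89% in *Sod1*, *Cat*, and *Txnrd1* and under 19% in *Sod2*, *Sod3*, *Gpx4*, and *Keap1*.

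The distance to the TSS depends on which start the table holds. The table gives 1 start per gene, and RefSeq promoters (GRCm38.p6) were found for 9 of the 10 genes. RRBS coordinates are those of mm39, the build that the submitters' processing notes name. The annotation at hand was of GRCm38, so the starts were compared only by their distance from the start of the gene, and no coordinate was converted. All 322 sites had a CG in GRCm38 at the same distance. For *Sod1*, *Cat*, *Prdx1*, *Nfe2l2*, and *Keap1*, the RefSeq start lay within 55 bases of the deposited start, and for *Gpx1* 177 bases after it. For *Sod2* it lay 993 bases after it. *Gpx4* and *Txnrd1* had a RefSeq start at the deposited position and further starts inside the gene, at 6399, 6493, and 6845 bases in *Gpx4* and at 25255 and 26390 bases in *Txnrd1*.

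The class of a site was set by its distance from the deposited TSS alone. The following sequences show the CpGs before the RefSeq starts of 4 of the genes. Each is the part of the 250 bases before a RefSeq start (GRCm38.p6, plus strand, positions counted from 1) that lies outside annotated exons, with every CpG in capitals. They are the first start of *Gpx4* (chr10:80046916-80047165), its start at 6845 bases (chr10:80053761-80054010), the first start of *Txnrd1* (chr10:82833701-82833950), its start at 25255 bases (chr10:82859009-82859178), the start of *Sod2* (chr17:13007589-13007816), and the start of *Prdx1* (chr4:116685349-116685543).
Gpx4 first start: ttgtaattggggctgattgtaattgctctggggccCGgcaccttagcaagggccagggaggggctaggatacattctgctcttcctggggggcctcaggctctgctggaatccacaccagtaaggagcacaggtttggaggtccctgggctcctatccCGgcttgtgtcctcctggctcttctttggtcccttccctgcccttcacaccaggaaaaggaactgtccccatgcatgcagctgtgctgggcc
Gpx4 start at 6845 bases: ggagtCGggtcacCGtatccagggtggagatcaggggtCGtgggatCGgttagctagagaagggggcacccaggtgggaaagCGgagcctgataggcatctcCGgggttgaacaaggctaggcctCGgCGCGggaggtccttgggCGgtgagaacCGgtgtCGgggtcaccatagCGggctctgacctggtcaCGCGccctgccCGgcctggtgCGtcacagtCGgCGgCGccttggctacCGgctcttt
Txnrd1 first start: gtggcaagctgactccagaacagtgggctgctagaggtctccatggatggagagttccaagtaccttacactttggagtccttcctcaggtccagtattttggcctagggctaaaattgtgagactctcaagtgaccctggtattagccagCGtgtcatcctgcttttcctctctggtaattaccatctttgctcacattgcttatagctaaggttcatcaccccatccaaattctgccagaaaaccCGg
Txnrd1 start at 25255 bases: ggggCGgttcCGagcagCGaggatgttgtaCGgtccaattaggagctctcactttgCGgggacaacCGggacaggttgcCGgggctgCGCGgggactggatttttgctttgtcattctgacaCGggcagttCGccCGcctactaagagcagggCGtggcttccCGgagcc
Sod2 start: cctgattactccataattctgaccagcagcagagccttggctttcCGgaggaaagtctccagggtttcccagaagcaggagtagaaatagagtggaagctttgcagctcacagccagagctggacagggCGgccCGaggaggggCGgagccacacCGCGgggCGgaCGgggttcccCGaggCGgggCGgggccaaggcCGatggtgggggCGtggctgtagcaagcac
Prdx1 start: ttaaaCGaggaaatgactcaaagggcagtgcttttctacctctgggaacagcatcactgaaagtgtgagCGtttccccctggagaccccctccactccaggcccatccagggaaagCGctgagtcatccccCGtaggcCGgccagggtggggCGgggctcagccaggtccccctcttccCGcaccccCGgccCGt

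The first starts of *Gpx4* and *Txnrd1* were poor in CpG, with 2 capitalised CpGs each, and 0 deposited sites lay in these sequences. The internal start of *Gpx4* held 21 CpGs, of which 12 were used sites, and that of *Txnrd1* held 14, of which 11 were used sites. Those 11 sites are not among the 322, because their closest deposited TSS is that of *Gm38560*, a gene on the other strand that starts 198 bases away from this start. The *Sod2* sequence held 13 CpGs, all deposited and 0 with enough reads. The *Prdx1* sequence held 9 CpGs, of which 5 were used. Over the 300 bases from 250 before to 50 after a start, the first starts of *Gpx4* and *Txnrd1* had 3 CpGs each, while the median over 32851 RefSeq promoters was 7. *Sod1* had the most among the antioxidant genes, with 34.

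These 300 bases were also searched on both strands for the letters TGACNNNGC, the core of the antioxidant response element. The letters were present in 12.4% of all RefSeq promoters and in 4 of the 14 promoters of the antioxidant genes, at *Sod1*, *Prdx1*, *Nfe2l2*, and the internal start of *Txnrd1* at 25255 bases. In the *Prdx1* and *Txnrd1* sequences above, they stand on the minus strand as Gctgagtca and gctttgtca, beginning 133 and 92 bases before the start. The first base of the *Prdx1* stretch is the G of a capitalised CpG. Letters that match are a description of the sequence and were not tested for binding.

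The superoxide dismutases were first examined. *Sod1* encodes the copper- and zinc-dependent enzyme of the cytosol. Its 31 promoter sites (chr16:90017750-90018273, 108 to 631 bases after the TSS) had levels of 1.86%, 1.75%, and 1.58% in Space 1 to 3 and 3.33%, 2.85%, and 1.62% in Ground 1 to 3. Space was lower by 0.87 percentage points on average (1.73% ± 0.14 against 2.60% ± 0.88, SD, n = 3 each), and Ground 3 lay within the range of the Space samples. The quasi-binomial test over all promoters did not call it (adjusted p = 0.935, dispersion moderated with limma). Among single promoter sites of *Sod1*, the largest difference was 538 bases after the TSS, with 0%, 3.45%, and 0% in Space and 3.85%, 15.8%, and 0% in Ground, a site too low on average to be tested.

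The 9 distal sites of *Sod1* had levels of 93.1%, 97.4%, and 92.1% in Space and 95.1%, 95.8%, and 94.6% in Ground (adjusted p = 0.989, limma-moderated quasi-binomial test). They lay on both sides of the gene, and 7 of the 9 were over 90%. The widest spread among the runs of the antioxidant genes, a run being 3 or more sites of 1 gene with steps of up to 100 bp, was in a run of 3 sites 8899 to 8926 bases after the TSS (chr16:90026541-90026568). It had levels of 77.2%, 96.7%, and 86.7% in Space and 90.9%, 97.0%, and 92.1% in Ground, so that Space 1 was lowest and the groups overlapped. At the middle site, 8918 bases after the TSS, Space 1 was at 68.4% and Ground 1 at 90.9%, and the group means differed by -11.3 percentage points (adjusted p = 0.934, limma-moderated quasi-binomial test). Within each sample, distal sites of *Sod1* exceeded promoter sites by 90.5 to 95.6 percentage points. The mean gap was 92.5 (SE 0.900, limma on the gaps of 8422 genes, adjusted p = 4.1e-11), larger than in 78.1% of these genes.

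*Sod2* encodes the manganese enzyme of the mitochondria. Its 5 promoter sites had levels of 3.43%, 1.42%, and 0.625% in Space and 2.96%, 1.64%, and 0% in Ground, the last on 175 reads. With 0 methylated reads counted, the underlying level may still reach about 3 divided by the number of reads (an approximate 95% limit), here 1.71%. This limit was up to 2.91% in the least read run and 27.3% at the least read single site at 0% in any sample. The samples of both groups interleaved (adjusted p = 0.994, limma-moderated quasi-binomial test). Of its 39 distal sites, 34 formed a run 1044 to 1340 bases after the deposited TSS (chr17:13226777-13227073), which is 51 to 347 bases after the RefSeq start and overlaps the first exon of the transcript that begins there. The levels of this run were 0.438%, 3.46%, and 0.192% in Space and 1.33%, 1.5%, and 1.08% in Ground. Space 2 was highest and the other Space samples were lowest. A further 3 distal sites, up to 638 bases after the RefSeq start, were at 0% to 5.38%.

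The only *Sod2* sites with a mean level over 10% were 2 intronic sites 21085 and 21097 bases after the TSS, at 25%, 25%, and 24.2% in Space and 10.9%, 27.8%, and 36.1% in Ground. The gap between distal and promoter sites of *Sod2* was 1.28 percentage points (SE 0.928, adjusted p = 0.229 by limma), which was not called. Without those 2 sites, it was 0.0335 percentage points, and 3 of the 6 samples had a gap above 0. For *Sod2*, the distal class was thus made mostly of sites next to another annotated start.

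*Sod3* encodes the secreted enzyme of the extracellular space. No RefSeq promoter sequence was matched. Its 2 promoter sites differed from each other. The site 139 bases after the TSS had levels of 3.64%, 3.23%, and 0% in Space and 0%, 12.8%, and 2.50% in Ground. The site 265 bases after the TSS (chr5:52521398), in an intron, had levels of 70.4%, 53.8%, and 40% in Space and 48.1%, 40%, and 33.3% in Ground. The second was the promoter site with the largest difference between group means among the antioxidant genes, 14.2 percentage points. Space 3 lay at the level of Ground 2, and the site was not called (adjusted p = 0.915, limma-moderated quasi-binomial test). At least 3 sites were needed to test a promoter, so the *Sod3* promoter was not tested as a whole.

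The 33 distal sites of *Sod3* had summed levels of 10.9%, 10.1%, and 10% in Space and 10.7%, 8.96%, and 13.8% in Ground. This average hid 2 kinds of sites. A run of 19 sites in the coding exon, 4532 to 4805 bases after the TSS (chr5:52525665-52525938), ranged from 1.06% to 4.78%, and 5 more sites in the same exon from 0% to 8.12%. In contrast, the 3 sites 10705 to 10487 bases before the TSS were at 91.3% to 100%. A run of 5 sites 3518 to 3424 bases before the TSS (chr5:52517615-52517709) had levels of 4.83%, 5.56%, and 6.67% in Space and 2.00%, 0%, and 4.44% in Ground. All Space samples were above all Ground samples, by 3.54 percentage points (5.68% ± 0.926 against 2.15% ± 2.23, SD, n = 3 each). The exact permutation test gave p = 0.1, the smallest that 3 against 3 samples allow, and the run was not called among all runs (adjusted p = 0.872, limma-moderated quasi-binomial test).

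The enzymes that remove peroxide came next. *Cat* encodes catalase of the peroxisome. Of its deposited sites, 35 lay in the promoter, but 0 had 10 reads in all 6 samples. With every read at these 35 sites counted, 186 to 286 reads per sample were available, and the levels were 0.431%, 3.06%, and 0.508% in Space and 0%, 0%, and 0.474% in Ground. The 0% in Ground 1 and Ground 2 allow up to 1.05% and 1.61%. Over all 35 sites, the *Cat* promoter was thus at 3.06% or less in every sample. With a minimum of 5 reads, 6 sites gave 4.10% ± 6.10 (SD, n = 3) in Space and 0% in Ground. The *Cat* promoter was not called at that minimum, and at this depth a small difference was not detectable.

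The 12 distal sites of *Cat* had levels of 93.6%, 91.0%, and 92.1% in Space and 89.2%, 89.6%, and 91.2% in Ground. This was the largest distal difference among the antioxidant genes, 2.23 percentage points, and Ground 3 lay within the Space range (adjusted p = 0.942, limma-moderated quasi-binomial test). The sites 14709 and 14758 bases after the TSS were covered by the same number of reads in each sample. The first was at 0% in 5 samples and at 4.55% in Ground 3, and the second at 100% in 5 samples and at 95.5% in Ground 3. RRBS reads an unmethylated C and a T alike, and which of them the first site held was not tested. Without this pair, the other 10 sites gave 96.2% ± 1.30 in Space and 95.4% ± 1.01 in Ground, a difference of 0.732 percentage points, so the larger difference rested on this pair.

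*Gpx1* encodes the most abundant cytosolic glutathione peroxidase. Its 21 used sites (chr9:108216342-108216642) all lay in the promoter, 240 to 540 bases after the TSS, in the exon. They had levels of 0.257%, 0.334%, and 0.238% in Space and 0.763%, 0.673%, and 0.283% in Ground (adjusted p = 0.983, limma-moderated quasi-binomial test). This was the lowest promoter level of the antioxidant genes, and only 1.11% of the genes tested had a lower one. The start of *Gm37401* lies 630 bases away on the other strand. With the 1 site assigned to it added, Space was at 0.340% ± 0.104 and Ground at 0.538% ± 0.235.

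*Gpx4* encodes the glutathione peroxidase that reduces lipid peroxides in membranes and occurs at high level in the testis. All of its 147 deposited sites were distal. Of the 42 used, 40 formed a single run 6720 to 7036 bases after the deposited TSS (chr10:79889720-79890036), within 191 bases of the RefSeq start at 6845 bases. The levels of this run were 1.99%, 1.52%, and 2.11% in Space and 2.57%, 1.47%, and 0.918% in Ground. Both the highest and the lowest sample belonged to Ground (1.87% ± 0.312 in Space, 1.65% ± 0.841 in Ground, adjusted p = 0.972, limma-moderated quasi-binomial test). Sites that count as distal from the deposited TSS thus had the level of promoter sites.

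The other 2 sites of *Gpx4* lay outside the gene. The site 11222 bases after the TSS (chr10:79894222) had levels of 85.7%, 85.7%, and 75.9% in Space and 73.5%, 77.8%, and 55.6% in Ground. It showed the largest difference of a distal site, 13.5 percentage points, with Ground 2 above Space 3 (adjusted p = 0.948, limma-moderated quasi-binomial test). It was read 18 to 34 times per sample. The last site, 24218 bases after the TSS, ranged from 0% to 16.7%.

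*Prdx1* encodes a peroxiredoxin, which reduces peroxide with electrons from thioredoxin. Its 15 promoter sites had levels of 0.154%, 4.36%, and 2.32% in Space and 2.04%, 0.578%, and 0.520% in Ground. The difference was 1.23 percentage points (2.28% ± 2.10 in Space, 1.04% ± 0.859 in Ground). It was 0.191 without Space 2, 2.29 without Space 1, and 0.253 with a minimum of 5 reads per site. Space 1 was the lowest of all samples and Space 2 the highest, so the spread within Space exceeded the difference (adjusted p = 0.933, limma-moderated quasi-binomial test). The 5 sites before the TSS, which are capitals in the sequence above, had levels of 0.662%, 3.51%, and 2.00% in Space and 1.61%, 0%, and 0.649% in Ground. In the first intron, 8 sites were at 0%, 3.39%, and 1.97% in Space and 0%, 0%, and 0.322% in Ground (unadjusted p = 0.0348, adjusted p = 0.860, limma-moderated quasi-binomial test).

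*Txnrd1* encodes the cytosolic thioredoxin reductase, which regenerates thioredoxin and is a known target of NRF2. It had 6 used sites, all distal, with levels of 97.4%, 98.3%, and 93.4% in Space and 96.6%, 97.6%, and 97.1% in Ground (adjusted p = 0.990, limma-moderated quasi-binomial test). All 6 were over 90%, from 9251 bases before the TSS to 11940 bases after it. The CpG-rich starts inside the gene had been assigned to *Gm38560*. Within 1 kb of the start at 25255 bases, 35 sites were at 1.25%, 1.36%, and 1.83% in Space and 5.23%, 1.27%, and 0.708% in Ground. Ground 1 stood above the other samples, and Ground 3 below them. Within 1 kb of the start at 26390 bases, 30 sites were at 0.886% to 2.47%. Read by the name in the table, *Txnrd1* was a methylated gene, whereas the sites at its CpG-rich starts were nearly unmethylated.

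**Figure D2:**
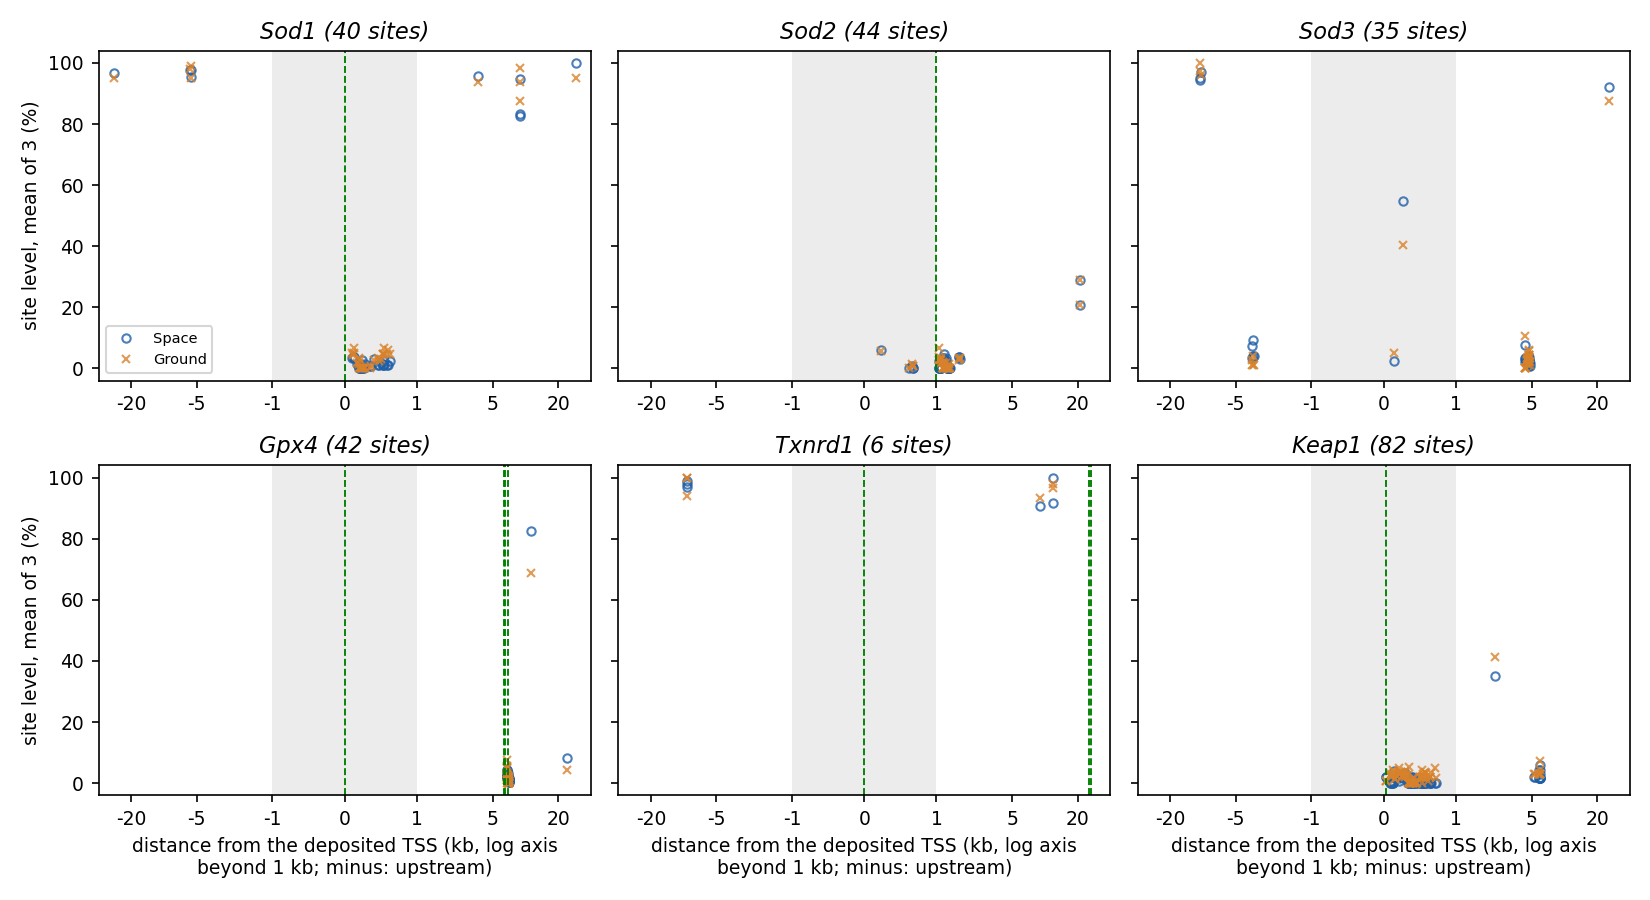
Mean level of each CpG site in Space (circles) and Ground (crosses) against its distance from the deposited TSS in kb (logarithmic beyond 1 kb), with promoter sites in the grey band and RefSeq starts as dashed lines. Sites near a dashed line were near 0%, including the 40 *Gpx4* sites 6720 to 7036 bases and the 34 *Sod2* sites 1044 to 1340 bases after the deposited TSS, while all 6 *Txnrd1* sites were over 90%.

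The regulators were *Nfe2l2* and *Keap1*. All 25 used sites of *Nfe2l2* lay in the promoter, in the first intron, and 24 of them formed a run 623 to 908 bases after the TSS (chr2:75534077-75534362). The promoter levels were 4.10%, 1.52%, and 1.75% in Space and 1.67%, 1.48%, and 1.48% in Ground. Space 1 stood apart and the other 5 samples lay between 1.48% and 1.75% (adjusted p = 0.947, limma-moderated quasi-binomial test). Without Space 1, the difference dropped from 0.909 to 0.0868 percentage points. It was 1.84 with a minimum of 5 reads per site and 1.59 with equal weights for sites. *E030042O20Rik* starts 129 bases away on the other strand, and with its sites added, 31 sites gave 2.32% ± 0.790 in Space and 1.55% ± 0.370 in Ground.

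*Keap1* had the most sites, 69 in the promoter and 13 farther away. The promoter sites formed 1 run from 25 to 719 bases after the TSS (chr9:21149938-21150632), in the 5′ untranslated region. Their levels were 1.05%, 1.07%, and 1.13% in Space and 1.90%, 1.83%, and 2.60% in Ground, on 2157 to 2472 reads summed over the sites. All Space samples were below all Ground samples, by 1.03 percentage points (1.08% ± 0.0449 against 2.11% ± 0.424, SD, n = 3 each). The exact permutation test gave p = 0.1, the smallest that 3 against 3 samples allow. In the quasi-binomial test moderated with limma, p was 0.0155 before and 0.912 after adjustment over 14361 promoters, so *Keap1* was not called. As a run among all 50240 runs, the unadjusted p was 0.00447 and the adjusted p 0.860 (the same test). The run holds the same 69 sites and reads as the promoter, so it is not a second measurement. Among the 6 antioxidant promoters tested, *Keap1* was the 1 whose groups did not overlap, beside 9.55% of all promoters, and the 1 with an unadjusted p under 0.05, beside 5.31% of all promoters.

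Among the *Keap1* promoter sites, the one 349 bases after the TSS had methylated reads in Ground 3 only (15.8%).

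**Figure D3:**
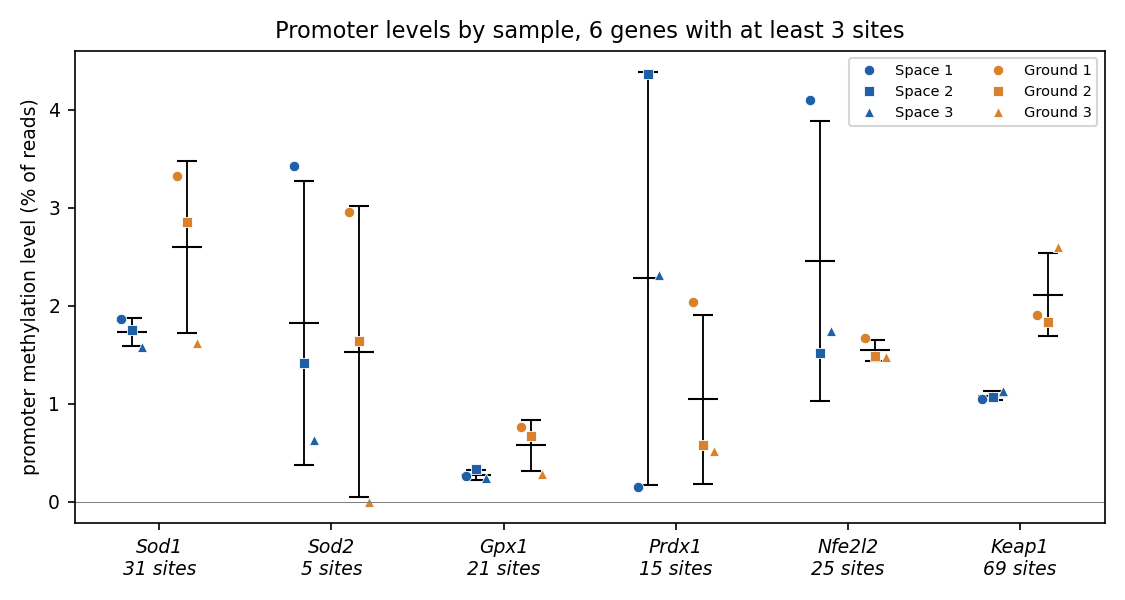
Promoter DNA methylation level (percent of reads) in each sample for the 6 genes with at least 3 promoter sites, with the mean and SD of 3 replicates as bars. The groups overlapped in 5 genes, and in *Keap1* the Space samples (1.05% to 1.13%) lay below the Ground samples (1.83% to 2.60%).

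The 13 distal sites of *Keap1* had levels of 11.2%, 8.77%, and 6.21% in Space and 18.5%, 4.92%, and 5.97% in Ground (adjusted p = 0.999, limma-moderated quasi-binomial test). A single site in a coding exon, 2285 bases after the TSS (chr9:21148372), was at 43.4%, 29.5%, and 32.8% in Space and 49.2%, 41.0%, and 33.3% in Ground, while the other 12 sites summed to 0.683% to 8.05%. The run of 10 sites 5822 to 5966 bases after the TSS (chr9:21144691-21144835) was at 6.36%, 1.67%, and 0% in Space and 9.09%, 0.358%, and 1.25% in Ground, so that replicate 1 was highest in both groups. The gap between distal and promoter sites was 7.65 percentage points (SE 1.92, adjusted p = 0.00666 by limma). It rested on the site 2285 bases after the TSS. Without it, the gap was 1.25 ± 3.21 percentage points (SD over 6 samples) and above 0 in 3 of 6 samples.

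Promoter and distal sites could be compared within the same gene in 3 of the 10 genes. The gap was called in *Sod1* and *Keap1* and not in *Sod2*, beside 87.5% of 8422 genes with a called gap above 0. Space and Ground did not differ in the gap by limma. The Space gap minus the Ground gap was -0.109 percentage points in *Sod1* (95% interval -4.41 to 4.19), -0.397 in *Sod2* (-4.83 to 4.04), and -0.0324 in *Keap1* (-9.21 to 9.14), with adjusted p-values of 0.996 or more. The *Keap1* value rested on single samples, at 4.41 without Ground 1 and -2.32 without Ground 2. Over all genes, 0 gap differences were called, and 4.81% had an unadjusted p under 0.05. Each interval spanned several percentage points.

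Distal runs of many sites were more often under 10% than short ones, in the antioxidant genes as in the whole table. Of the 38 groups of sites in the antioxidant genes, 19 had at least 3 sites. The 4 distal runs of at least 10 sites, in *Sod2*, *Sod3*, *Gpx4*, and *Keap1*, were all under 10%, beside 86.2% of such runs in the table. Those of *Sod2* and *Gpx4* also lay near a RefSeq start, so number of sites and nearness to a start were not separated. Of the 8 distal runs of 3 to 9 sites, 3 were under 10%, beside 26.1% of such runs in the table. Between 1 and 2 kb from the TSS, the 37 sites of the antioxidant genes were all in *Sod2* and all under 10%, and 86.7% of all sites in the table were. Between 2 and 10 kb, 87.1% of 93 sites were under 10%, compared with 58.9% of all sites, and 40 of the 93 formed the *Gpx4* run near an internal start. Beyond 10 kb, 2 of 24 sites (8.33%) were under 10%, compared with 34.5% of all sites. Of the 24, 12 were in *Cat*, and the 2 under 10% were the *Cat* site at 14709 bases and the *Gpx4* site at 24218 bases. These shares were not tested, because sites of 1 run share reads.

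**Figure D4:**
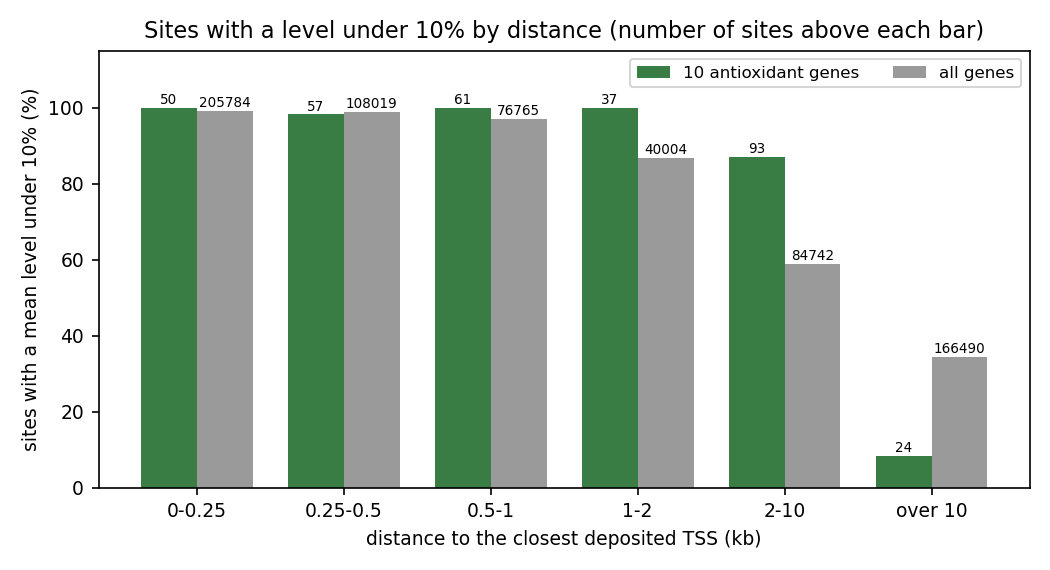
Share of sites with a mean level under 10% (percent) by distance to the closest deposited TSS (kb), for the 10 antioxidant genes and for all genes, with the number of sites above each bar. Up to 2 kb nearly all sites of the antioxidant genes were under 10%, where the 37 sites between 1 and 2 kb were all in *Sod2*. Beyond 10 kb 8.33% were, compared with 34.5% for all genes, and 12 of those 24 sites were in *Cat*.

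For Space against Ground, 0 of the 6 antioxidant promoters, 0 of the 7 distal classes, 0 of the 19 runs, and 0 of the 20 single sites tested were called at an adjusted p under 0.05. The same tests called 0 of 14361 promoters, 0 of 17203 distal classes, 0 of 50240 runs, and 0 of 92042 sites, and so did edgeR and limma on log2 ratios. At an unadjusted p under 0.05, the counts in the antioxidant genes were 1, 0, 2, and 0, and over all features 763, 942, 2848, and 5161, or 5.31%, 5.48%, 5.67%, and 5.61%. The same *Keap1* sites are counted both as a promoter and as a run, here and among the groups without overlap. The groups did not overlap in 2 of the 19 runs and 2 of the 20 sites, beside 9.19% and 9.07% of all tested. Both sites were in the *Sod3* run 3518 to 3424 bases before the TSS, at 7.48% against 2.90% and at 9.34% against 1.23%, and no distal class was without overlap, beside 9.74% of all distal classes. Of the 322 sites, 0 differed by more than 20 percentage points between the group means, beside 0.0277% of all promoter sites and 0.421% of all distal sites. Promoters were higher in Space in 3 genes and in Ground in 3, beside 54.3% of all promoters that were higher in Space. Their median absolute difference was 0.890 percentage points, compared with 0.598 over all promoters.

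Other genes linked to reactive oxygen species were read from a list of 49, which includes the oxidase genes *Nox1*, *Nox4*, *Cyba*, and *Cybb*. In the 37 with a tested promoter, 36 were under 10%, with a median of 1.68%, compared with 1.82% over all promoters. *Gsr*, which encodes glutathione reductase, was the exception at 15.5%, 29.6%, and 30.6% in Space and 13.2%, 28.6%, and 25.3% in Ground, on 3 sites. Of the 37, 27 were higher in Space and 10 lower, beside the 54.3% of all promoters that were higher in Space. None was called, and 2 had an unadjusted p under 0.05, beside 5.31% of all promoters. *Gpx7*, a peroxidase of the endoplasmic reticulum, had promoter levels of 0.569%, 0.676%, and 0.225% in Space and 2.71%, 5.58%, and 1.30% in Ground, without overlap. *Maff*, a small MAF protein that pairs with NRF2, had 4.70%, 2.63%, and 2.20% in Space and 0%, 0.730%, and 1.04% in Ground, also without overlap. Each had an exact permutation p of 0.1, the smallest possible, and an adjusted p of 0.912 or 0.915 (limma-moderated quasi-binomial test). Among the 37 promoters 4 did not overlap between the groups, with the background of 9.55% given above.

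Away from the TSS, 23 of the 49 genes were tested, with a median level of 31.9%, compared with 66.1% over all genes. The largest differences were in *Gsta4*, a glutathione transferase (39.5%, 15.5%, and 27.2% in Space and 40.2%, 31.5%, and 28.9% in Ground), *Glrx*, a glutaredoxin (67.3%, 67.0%, and 59.6% in Space and 57.2%, 56.8%, and 61.8% in Ground), and *Rbx1*, a subunit of the ligase that degrades NRF2 (71.1%, 56.3%, and 50.5% in Space and 59.7%, 51.8%, and 52.6% in Ground). The groups overlapped in each, and 0 of the 23 were called (smallest adjusted p = 0.897, limma-moderated quasi-binomial test). Of the 23, 1 had an unadjusted p under 0.05, beside 5.48% of all distal classes.

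The label of the cells was checked with 10 germline genes whose promoters are methylated in somatic cells. Of these, 8 had a tested promoter, *Ddx4*, *Dazl*, *Mael*, *Asz1*, *Tdrd1*, *Sycp3*, *Taf7l*, and *Rpl10l*, and their mean levels were 0.740% to 3.23%, with no sample over 6.67%. *Dpep3*, with 2 promoter sites, was at 10.8% to 32.4%, and the 6 sites of *Tex101*, all distal, were at 0% to 9.05%. Promoters of the germline genes were thus nearly unmethylated in every sample for these 8 genes. The antioxidant promoters were at similar levels, and the median over all promoters was 1.82%. No somatic sample was at hand for comparison, and the part of feeder cells in any value was not tested.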

How the data were processed

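Genomic DNA of 3 Space and 3 Ground replicates, grouped by their titles, was analyzed by RRBS. Per the labels, libraries were made with the Zymo-Seq RRBS kit, and the submitters' processing notes name Trim Galore, Bismark 0.24.2, methylKit, and mm39, without parameters or the handling of duplicate reads. The authors deposited 1 table, in which each CpG site has a count of reads and a percent of methylated reads per replicate, and the closest TSS. Reads carry no molecular identifiers as far as stated, so limits from read numbers cover counting error only. Bases that differ between DBA/2 and mm39 could be misread as methylation states. The product of count and percent gave the methylated reads, and it was whole to within 0.000266 reads throughout. Site coordinates count from 1, since 97.3% of the promoter sites on the chromosomes checked then fell on a CG at the same distance in GRCm38.

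Reads were summed over sites that every sample covered at least 10 times. Promoters and distal classes needed at least 3 sites, and runs at least 3 sites in steps of up to 100 bp. Single sites were tested at mean levels of 5% to 95%. Space and Ground were compared over all features with a quasi-binomial test whose dispersion was moderated with squeezeVar (limma 3.58.1, R 4.3.3), and gaps with limma, both two-sided with Benjamini-Hochberg adjustment at 0.05. Exact permutation tests were two-sided. The tests were tested on simulated data. Figures were drawn with matplotlib 3.10.9. Exons and introns were those of GENCODE M21, placed by distance from the gene start.

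The genes and the lists of 49 other genes linked to reactive oxygen species and 10 germline genes were chosen with earlier results of these data known. The sites and runs named were those with the largest differences (3 promoter sites, 3 distal sites, and 3 runs) or the widest range (3 runs), and of the other list those past the threshold and the 3 with the largest promoter and distal differences. Other values named were chosen after they were seen. Alternatives were a minimum of 5 or 20 reads, windows of 500 or 2000 bp, sites over 1000 reads left out, equal weights for sites, genes with 1 site, no filter on the mean level, edgeR 4.0.16, limma on log2 ratios with 2 reads added, a replicate block, each replicate left out, and other starts.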

Additional observations from a re-analysis of the deposited data

How the results depend on the processing

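No antioxidant gene was called between Space and Ground under any alternative. The smallest adjusted p over the alternatives was 0.671 for their promoters, 0.708 for distal classes, 0.504 for runs, and 0.543 for single sites (limma-moderated quasi-binomial test). Promoters, distal classes, runs, and gap differences gave 0 calls under all alternatives run. Single sites gave 0 to 5 calls when 1 replicate was left out (1 without Space 2, 3 without Space 3, and 5 without Ground 1), with 0 in antioxidant genes. The 16 promoter, distal, and gap differences of the antioxidant genes had 198 alternative values. The yardstick was the larger SD between replicates of the 2 groups, a wide one for the *Keap1* gap (7.69 percentage points in Ground). Leaving out 1 of 3 replicates cannot move a group mean by 1 such SD, so those values lay within it in advance. The same holds for leaving out sites over 1000 reads, since no site used in these genes had more than 84 reads. For these alternatives, the following count is therefore no test. Of the 198 values, 196 lay within 1 such SD of the reported value. The other 2 were those of *Cat* distal sites, 0.867 percentage points with a minimum of 20 reads and 0.425 with equal weights for sites, where the pair of sites at 0% and 100% weighs differently. Of the 16 differences, 10 took the other sign under at least 1 alternative. The difference of the *Keap1* promoter was -1.17 to -0.653 percentage points. The *Cat* promoter, tested only with a minimum of 5 reads, is not among the 16, nor is the *Sod3* promoter, tested only with genes of 1 site allowed.

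The gap between distal and promoter sites was called in 7576 genes, in 3917 with a minimum of 20 reads, where fewer genes (4793) were tested, and in 7510 to 7529 with 1 replicate left out. Of the antioxidant genes, 2 were called, 3 with a minimum of 5 or 20 reads, and 1 with a window of 500 bp. Replicate numbers come from the titles, which state no pairing. The sample descriptions carry numbers that run on from each Space replicate to the Ground replicate of the same number, and their meaning is not stated. Deviations of samples with the same number correlated at 0.00988 to 0.0438 and those of other numbers at -0.0367 to 0.0146. Space 1 and Space 2 correlated best with the Ground sample of the same number, and Space 3 with Ground 2. A replicate block left 0 calls between the groups and 7542 gaps. With it, the quasi-binomial test gave an unadjusted p under 0.05 in 1052 promoters (763 without) and 4471 runs (2848 without). At about 30 reads per site, single sites limited what could be seen, and near 0% a level rested on few methylated reads.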
